A study of Mus musculus with 2 samples.

Results

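The genes of growth hormone signalling in liver were followed through Foxa2 HiChIP contact maps of mouse liver: Ghr, Jak2, Stat5a, Stat5b, Igf1, Igfals, Socs2, Socs3, Cish and Bcl6. The genes were chosen by name, and every 50 kb bin that overlaps the span of one of them on mm10 was taken. All 10 genes matched the gene table. They cover 20 of the 54521 bins and form 9 loci, because Stat5a and Stat5b share a bin and were counted as 1 locus. The study compared liver of wildtype mice given vehicle (propylene glycol with Tween 80) by gavage with liver of wildtype mice given the FXR agonist GW4064 in that vehicle, both collected 4 h after 1 dose. FXR is the nuclear receptor for bile acids. HiChIP ligates DNA ends that lie near each other and then enriches, with an antiserum, those bound by a factor, here Foxa2, a forkhead pioneer factor of hepatocytes. The sources used here do not give strain, sex, age or the number of mice behind a library, and contact maps hold no transcripts against which the tissue could be checked.

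Each group held 1 library, so there is no replicate check and no test, and every difference below compares 2 libraries. Depth was 22686004 contacts with vehicle and 29003442 with GW4064. Pairs of different bins at most 2 Mb apart made up 5598715 and 7902692 of these. The 95% intervals cover counting error only. Foxa2 enrichment of a bin and its contact frequency cannot be told apart in these counts, and neither can library and treatment.

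Growth hormone binds its receptor GHR on hepatocytes and activates the receptor-bound kinase JAK2, which phosphorylates the transcription factors STAT5A and STAT5B. STAT5 then drives Igf1, the circulating growth factor, Igfals, which holds IGF1 in a stable complex in blood, and the feedback inhibitors Cish and Socs2. Socs3, another inhibitor, responds mainly to cytokines, and Bcl6 encodes a repressor that competes with STAT5 at many liver genes.

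The STAT5 element, TTCNNNGAA, was looked for in the RefSeq promoter windows of these genes (GRCm38.p6, 250 bases before to 50 after a start site, both strands, matches allowed to overlap). It was found in windows of 4 of the 9 genes that have one: Bcl6, Cish, Igfals and Socs3. Socs2 had no such window and was not searched. A share over all genes was not counted. By window, 6 of 15 held it, against 8.30% of all 32851 promoter windows. The forkhead element, searched as TGTTTAC or TATTTAC, was found in 1 of the 15 windows, an Igfals window, against 6.54% of all windows. The stretches are shown because they carry the letters that STAT5 and Foxa proteins read. Capitals mark the matches, and every stretch runs 5′ to 3′ on the strand of the gene. A match is a description of letters, not a measured binding site, and 50 kb bins do not resolve a promoter.
Bcl6, second start site, chr16:23981353-23981461, minus strand, 3 matches between 168 and 80 bases before the start: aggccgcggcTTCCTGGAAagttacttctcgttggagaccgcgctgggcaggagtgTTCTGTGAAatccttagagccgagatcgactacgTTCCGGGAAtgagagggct
Bcl6, first start site, chr16:23988952-23988980, minus strand: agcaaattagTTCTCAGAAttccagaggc
Cish, chr9:107296649-107296683, plus strand, 2 matches that begin at the start site: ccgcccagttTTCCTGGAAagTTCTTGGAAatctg
Igfals, chr17:24877598-24877626, plus strand: gatctataatTTCTCAGAAaagaggctga
Igfals, a later start site, chr17:24878163-24878191, plus strand: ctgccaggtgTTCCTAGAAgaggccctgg
Igfals, forkhead element of the same window, chr17:24877981-24878005, plus strand: gggcagcaTGTTTACctggggtctt
Socs3, chr11:117969502-117969530, minus strand: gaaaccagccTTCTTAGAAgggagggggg

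Local contacts, those that join a locus to a different bin at most 2 Mb off, were lower with GW4064 at 6 of the 9 loci once the libraries had equal totals of such contacts. These loci were Stat5a with Stat5b, Igf1, Igfals, Cish, Socs2 and Socs3, and 0 loci were higher. A locus was called when its scaled ratio passed 1.2-fold with an interval that excludes 1. By the same rule 34.2% of 17322 protein-coding loci were lower and 2.43% were higher. By the interval alone, 7 of the 9 loci, these 6 and Bcl6, lay below 0 and 0 lay above, against 41.1% and 5.84% of protein-coding loci. The median log2 ratio of GW4064 to vehicle was -0.34 over the 9 loci and -0.15 over all protein-coding loci. Scaling to equal total contacts adds 0.14 to every log2 ratio, and 4 loci then stayed past the fold: Stat5a with Stat5b, Igfals, Cish and Socs3. Under that scaling 19.7% of protein-coding loci were lower and 11.9% higher. The same 4 stayed when the median protein-coding locus served as the reference, where the shares were 19.1% and 12.9%.

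**Figure D1:**
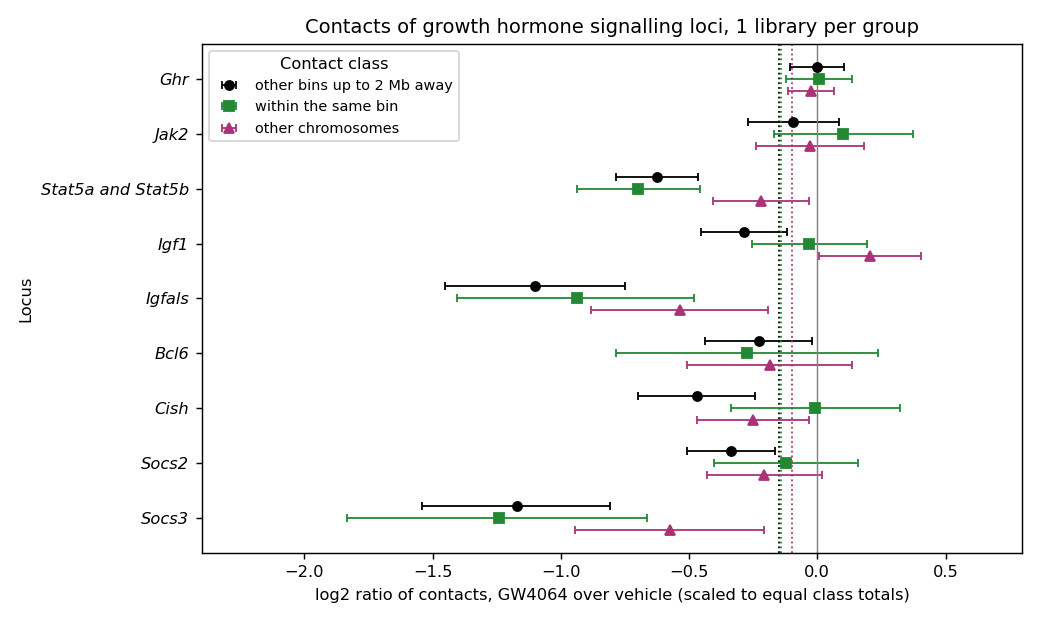
The log2 ratio of contacts, GW4064 over vehicle, is plotted for the 9 loci in 3 contact classes, with bars for the 95% counting intervals and dotted lines for the median protein-coding locus of each class. Socs3 and Igfals lie farthest to the left in all 3 classes, and Ghr and Jak2 lie near 0.

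At the receptor, Ghr (chromosome 15, 3317755 to 3583352), which encodes the growth hormone receptor, held 1289 local contacts in vehicle and 1818 in GW4064. After scaling they differed by less than the counting error, with a log2 ratio of 0.00 (interval -0.10 to 0.10). Ghr is the longest of the 10 genes, with 6 bins, and none of the 6 bins taken alone had an interval that excludes 0. Their log2 ratios ran from -0.20 (interval -0.41 to 0.02) in the fifth bin to 0.19 (-0.03 to 0.42) in the fourth. This depends on the scaling: Ghr had 0.14 (0.04 to 0.25) with equal total contacts and 0.15 (0.05 to 0.25) against the median locus. Contacts of Ghr 2 to 10 Mb away numbered 187 and 318, a log2 ratio of 0.43 (0.17 to 0.70).

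Jak2 (chromosome 19, 29251803 to 29313095), the kinase bound to the receptor, held 460 local contacts in vehicle and 608 in GW4064. The log2 ratio was -0.09 (interval -0.27 to 0.08). Its sign also depends on the scaling, with 0.05 under equal total contacts. The bins of Jak2 overlap those of Insl6, Plgrkt and Rln1. A difference between the libraries at Jak2 was not detectable at this depth.

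Stat5a and Stat5b (chromosome 11, 100780731 to 100885169), the transcription factors that JAK2 activates, held 678 and 621 local contacts. The scaled ratio was 0.649 (interval 0.581 to 0.725), a log2 ratio of -0.62 (-0.78 to -0.46). All 3 bins were lower, with log2 ratios of -0.53, -0.66 and -0.60 and each interval below 0. These bins also hold Stat3, Ghdc, Hcrt and Kcnh4, so the values belong to the cluster and not to the Stat5 genes alone. Contacts within the same bin were lower as well, 313 and 267, at -0.70 (-0.94 to -0.46), and contacts with other chromosomes less so, 495 and 447, at -0.22 (-0.41 to -0.03).

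The products that growth hormone is known for differed in size of change. Igfals (chromosome 17, 24877844 to 24882011), which encodes the acid-labile subunit of the IGF1 complex, held 173 local contacts in vehicle and 114 in GW4064. Its log2 ratio was -1.10 (interval -1.45 to -0.75), a scaled ratio of 0.467. The bin holds 8 other genes, Eme2, Fahd1, Hagh, Mapk8ip3, Mrps34, Nme3, Nubp2 and Spsb3. With 1 neighbour bin on each side the log2 ratio was -0.71 (-0.90 to -0.53), so the 3 bins together lay nearer to 0 than the Igfals bin.

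Igf1 (chromosome 10, 87858265 to 87937047), alone in its bins, held 549 local contacts in vehicle and 636 in GW4064, at a log2 ratio of -0.29 (-0.45 to -0.12). Its contact classes went different ways. Contacts within the same bin, 286 and 387, had -0.03 (-0.26 to 0.19), contacts 2 to 10 Mb away, 102 and 168, had 0.38 (0.02 to 0.75), and contacts with other chromosomes, 388 and 470, had 0.21 (0.01 to 0.40). With equal total contacts the local log2 ratio was -0.14 (-0.31 to 0.03), which ends the call.

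Among the inhibitors, Socs3 (chromosome 11, 117966079 to 117970336) had the lowest ratio of the 9 loci. Its 1 bin, shared with Pgs1, held 166 local contacts in vehicle and 104 in GW4064, which gives -1.17 on the log2 scale (-1.54 to -0.81). Each of its 7 contact classes was lower with an interval below 0. Contacts within the bin numbered 70 and 41, at -1.24 (-1.83 to -0.66), those 2 to 10 Mb away 35 and 12, at -1.88 (-2.96 to -0.90), and those with other chromosomes 153 and 108, at -0.57 (-0.94 to -0.21). With 1 neighbour bin on each side the local log2 ratio was -0.85 (-1.07 to -0.62). Igfals was likewise lower in each of the 7 classes, from -0.54 (-0.88 to -0.19) with other chromosomes to -1.41 (-2.28 to -0.59) at 2 to 10 Mb. All contacts of the Socs3 bin numbered 504 in vehicle and 327 in GW4064, at -0.98 (-1.18 to -0.77). Those of the Igfals bin numbered 528 and 356, at -0.92 (-1.12 to -0.73). Local contacts made up 32.9% and 31.8% of the total at Socs3, and 32.8% and 32.0% at Igfals. The lower counts at these loci were thus of the whole bin and not of local contacts in particular.

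Cish (chromosome 9, 107296659 to 107302784), a STAT5-induced inhibitor, held 315 local contacts in vehicle and 321 in GW4064, at a log2 ratio of -0.47 (-0.70 to -0.24). Contacts within its 2 bins, which also hold Mapkapk3, Hemk1 and 6430571L13Rik, numbered 136 and 187 and had -0.01 (-0.33 to 0.32). Socs2 (chromosome 10, 95383903 to 95417321), the SOCS protein that limits body growth, is alone in its 2 bins and held 531 and 594 local contacts, at -0.34 (-0.51 to -0.16). Within the same bin Socs2 had -0.12 (-0.40 to 0.16), and at 500 kb to 2 Mb it had -0.72 (-1.06 to -0.39). At Cish and Socs2, as at Igf1, the lower local ratios thus came with same-bin ratios whose intervals include 0. At Stat5a with Stat5b, Igfals and Socs3 the ratios of both classes were lower.

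Bcl6 (chromosome 16, 23965050 to 23988866), the STAT5-opposing repressor, held 352 local contacts in vehicle and 424 in GW4064. Its log2 ratio, -0.23 (-0.44 to -0.02), did not reach 1.2-fold. Its classes differed: contacts at 100 to 500 kb, 170 and 178, had -0.48 (-0.79 to -0.17), and contacts at 2 to 10 Mb, 29 and 61, had 0.74 (0.08 to 1.43).

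The order of the 9 local ratios runs from Socs3 and Igfals through Stat5a with Stat5b, Cish, Socs2, Igf1, Bcl6 and Jak2 to Ghr. The intervals of neighbours in that order overlap at each step, though between Igfals and the Stat5 locus only from -0.78 to -0.75. In the ranking of the 17322 protein-coding loci that reached 100 local contacts, Socs3 lay at percentile 0.156 and Igfals at 0.306. The Stat5 locus lay at 7.22, Cish at 16.2, Socs2 at 27.5, Igf1 at 33.1, Bcl6 at 39.6, Jak2 at 57.8 and Ghr at 71.5.

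Gene density moved with these ratios. The 21 bins around Ghr held 4 protein-coding genes, those around Bcl6 5, Socs2 5.5 and Igf1 8.5 (medians over the bins of a locus), against 16.5 for Jak2, 21 for Socs3, 27.5 for Cish, 47 for the Stat5 locus and 57 for Igfals. Set against protein-coding loci of like gene density, a comparison added after the values were seen, Socs3 lay 0.91 below their median (log2 -0.91, interval -1.28 to -0.55) and at percentile 0.0604 of 1657 loci. Igfals lay at -0.65 (-1.01 to -0.30) and percentile 1.96 of 1782 loci, and Socs2 at -0.32 (-0.49 to -0.14) and percentile 6.87. Igf1 had -0.21 (-0.38 to -0.05), Bcl6 -0.21 (-0.42 to -0.0004) and the Stat5 locus -0.18 (-0.34 to -0.02), each under the 1.2-fold limit. Cish had -0.16 (-0.39 to 0.07) and Ghr -0.05 (-0.15 to 0.05). Jak2 turned to 0.10 (-0.07 to 0.28). So 3 of the 9 loci, Socs3, Igfals and Socs2, passed the fold in that comparison. The share of protein-coding loci that pass it there was not counted, so the count of 3 has no background and cannot be read as a result about these loci. The part of gene density in the ratios was not tested further.

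**Figure D2:**
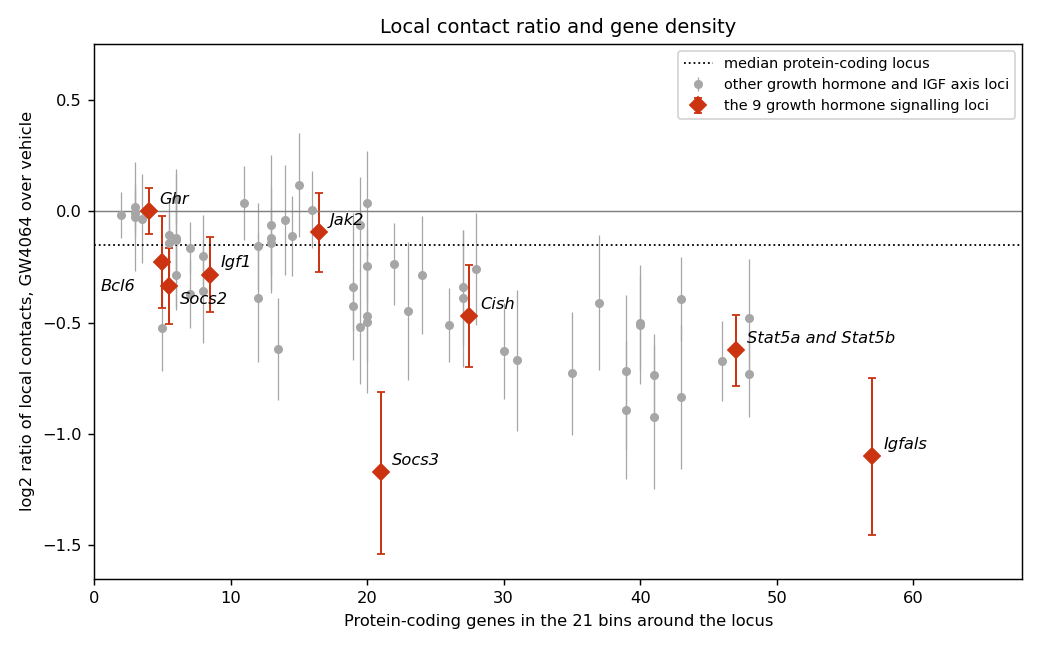
The log2 ratio of local contacts (vertical axis, bars for 95% counting intervals) is plotted against the number of protein-coding genes in the 21 bins around each locus for the 9 loci (red diamonds) and 57 other loci of the pathway (grey). Socs3, with 21 genes around it, lies below the grey loci of like density.

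The share of contacts that stayed within 2 Mb set Bcl6 apart from the other loci in both libraries. At Bcl6, 52.9% of all contacts in vehicle (exact Clopper-Pearson interval 49.1% to 56.8%) and 54.6% in GW4064 (51.1% to 58.2%) joined another bin up to 2 Mb away. The median protein-coding locus had 26.6% and 29.4%, and Bcl6 lay at percentile 99.98 in each library. Contacts within the bin made up 9.47% and 9.28%, at percentiles 3.26 and 2.69, and contacts over 10 Mb away were few too, with 7.67% and 7.99%. The other loci had shares of 25.8% (Ghr) to 38.0% (Socs2) in vehicle and 28.5% (Cish) to 39.4% (Socs2) in GW4064.

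Against the mean bin pair at the same distance, the loci fell into different patterns. At 100 to 500 kb, Ghr held 1.77 times the expected contacts in vehicle and 1.81 times in GW4064, at percentiles 98.2 and 99.0 of protein-coding loci. Igf1 held 1.66 and 1.41 times, Jak2 1.51 and 1.49 times and Bcl6 1.85 and 1.33 times. Igfals and Socs3 each held 0.773 times in vehicle (interval 0.603 to 0.975) and then 0.328 (0.238 to 0.440) and 0.291 times (0.207 to 0.397) in GW4064. The Stat5 locus held 1.28 times (1.14 to 1.43) in vehicle and 0.803 times (0.710 to 0.906) in GW4064, at percentiles 83.4 and 49.5. The median protein-coding locus held 0.925 and 0.807 times, and Igfals and Socs3 lay at percentile 31.4 in vehicle and at 4.56 and 3.68 in GW4064. At over 500 kb to 2 Mb, Bcl6 held 2.02 (1.69 to 2.39) and 2.10 (1.81 to 2.42) times the expected contacts, at percentile 99.4 in both libraries. Socs2 held 1.26 and 0.763 times at that range, and the other loci stayed below 1 in both libraries, as did the median protein-coding locus, with 0.804 and 0.664. Ghr lay at percentiles 47.2 and 51.5 of protein-coding loci at that range, and Igfals at 13.3 and 3.42.

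**Figure D3:**
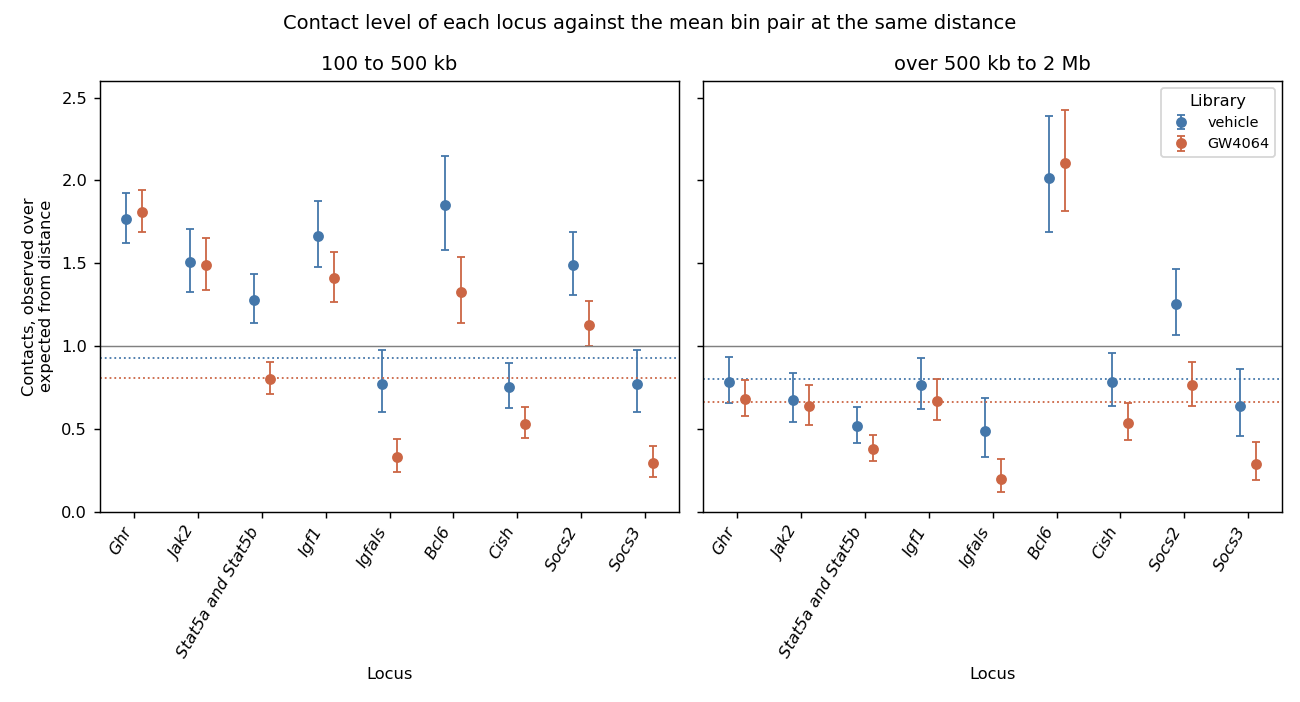
Observed over expected contacts (expected from distance alone) are plotted for each locus and library at 100 to 500 kb (left) and over 500 kb to 2 Mb (right), with 95% counting intervals and dotted lines for the median protein-coding locus. Bcl6 stands at 2.02 and 2.10 in the right panel, where the other loci, apart from Socs2 in vehicle, lie below 1.

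The long reach of Bcl6 lay on 1 side. Of its contacts with partner bins 100 kb to 2 Mb away, 76.9% in vehicle (233 of 303, interval 71.7% to 81.5%) and 75.5% in GW4064 (278 of 368, 70.8% to 79.9%) lay at higher coordinates. Bcl6 is read on the minus strand, so this is the side of its start sites. An expectation was set for each bin pair by its distance together with how many local contacts either bin had. Partner bins of Bcl6 with at least 10 contacts and over 2 times that number in the same library lay 450 to 1100 kb away. Of these, 5 were in Lpp, a gene for an adaptor protein of cell adhesions, and 2 held no protein-coding gene. Bins with fewer than 10 contacts could not be counted, so 1100 kb is not a measured edge. The Lpp bin 900 kb away held 10 and 12 contacts, 2.38 times expected over both libraries (interval 1.49 to 3.61), and the Lpp bin 500 kb away held 11 and 15, 2.17 times. The highest value, 3.77 times (2.37 to 5.71), was in a bin 1050 kb away with no protein-coding gene, which held 7 and 15 contacts.

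Ghr also had a one-sided set of partners. It lies near the start of chromosome 15, where 4 bins at lower coordinates held contacts between 100 kb and 2 Mb away. At higher coordinates, the side of its start sites, a block 300 to 400 kb away held many contacts. The bin at 350 kb held 40 in vehicle and 92 in GW4064, 2.37 times the expected number over both (interval 1.98 to 2.81). The bin at 400 kb, with Fbxo4 and AW549877, held 48 and 73, 2.31 times, and the bin at 300 kb held 60 and 96, 1.96 times. Between the libraries, the 350 kb bin was higher in GW4064 at a log2 ratio of 0.68 (0.13 to 1.26), scaled to the same distances.

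**Figure D4:**
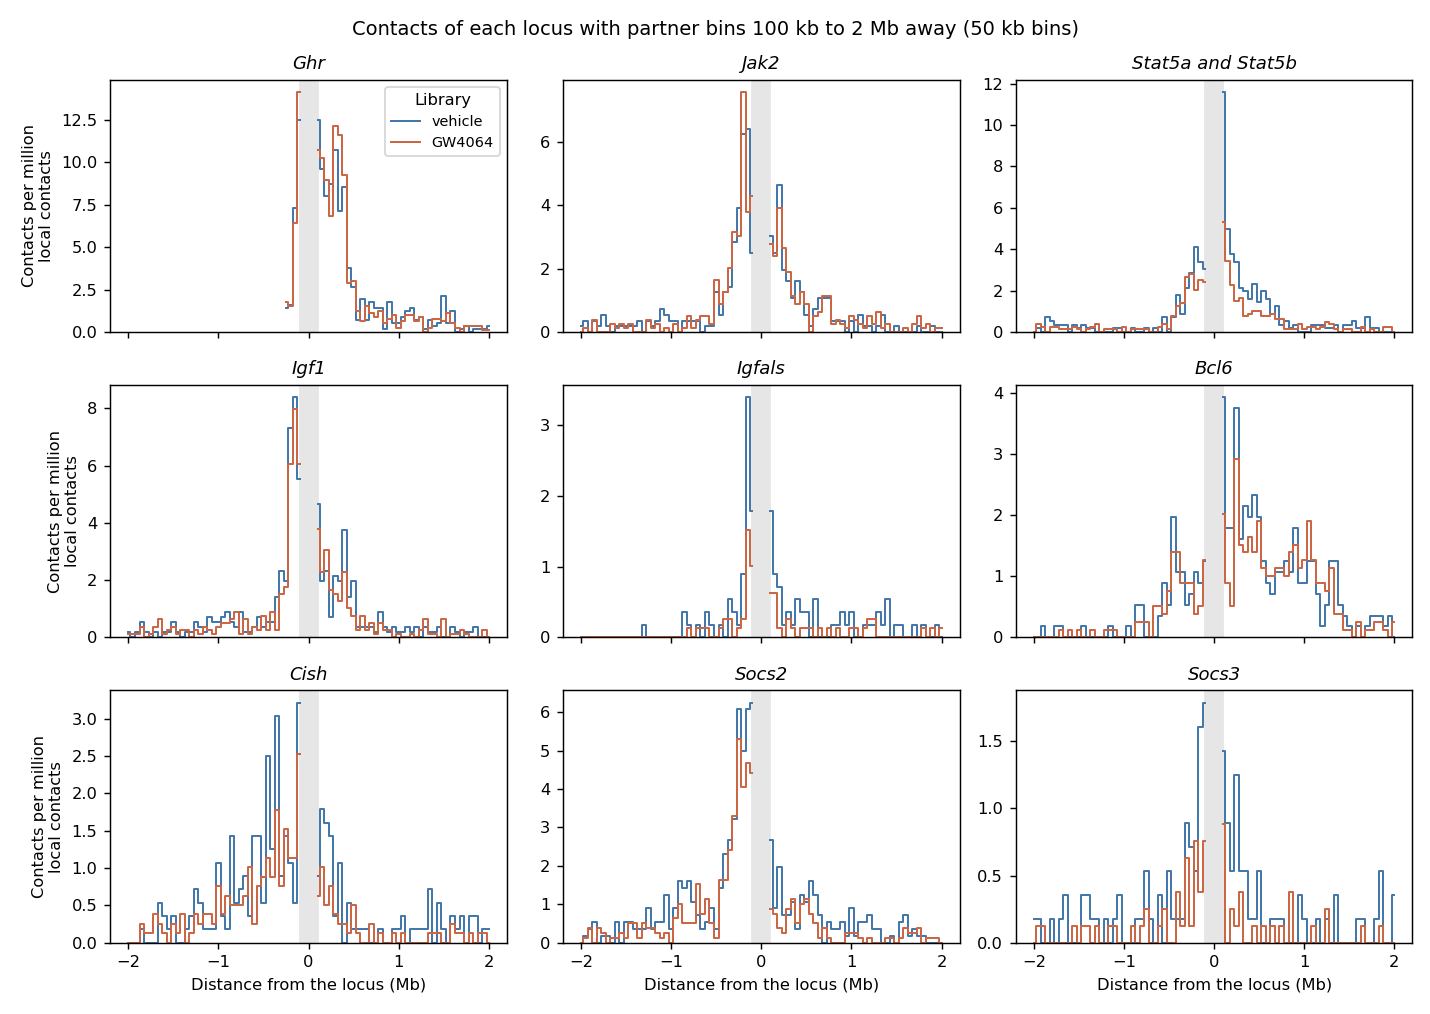
Contacts of each locus with every 50 kb partner bin are plotted against distance from the locus in Mb, for vehicle (blue) and GW4064 (red), scaled to the local contacts of the library. The grey band covers bins nearer than 100 kb. Bcl6 had 76.9% of these contacts on the right in vehicle, and Socs3 and Igfals are lower in GW4064 on both sides.

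At Stat5a with Stat5b, Cish and Socs2 the ratio was lower on the side of higher coordinates than on the other side, a comparison made after the profiles were seen. The interval of the difference between sides left out 0 at these 3 of the 9 loci, against 8.84% of 17203 protein-coding loci in either direction. At Cish, contacts with partner bins 100 kb to 2 Mb away numbered 150 and 170 on the lower side and 75 and 51 on the higher side. The log2 ratio scaled to the same distances was -0.32 (interval -0.65 to 0.00) on the lower side and -1.06 (-1.60 to -0.53) on the higher. The difference between the sides was -0.74 (large-sample interval -1.34 to -0.13). At Socs2 the counts were 283 and 312 on the lower side and 124 and 94 on the higher, a difference of -0.54 (-0.99 to -0.09). The Stat5 locus had 136 and 161 on the lower side and 251 and 201 on the higher, a difference of -0.56 (-0.99 to -0.14). The intervals of the other 6 loci include 0.

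Igf1 and Socs2 had their strongest partners at lower coordinates, in bins that hold no protein-coding gene. For Igf1, on the plus strand, these were the bins 150 kb away, with 47 and 63 contacts and 2.07 times the expected number (interval 1.70 to 2.49), and 200 kb away, with 41 and 48 and 2.12 times (1.70 to 2.61). For Socs2 the bin 250 kb away held 34 and 42 contacts, 2.55 times (2.01 to 3.20). Next to it, the bins at 300 and 350 kb stood at 2.02 times each. The third for Igf1 was 400 kb away on the other side, with Dram1 and Washc3, at 1.79 times.

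Cish and Igfals each had 1 partner bin at over 4 times the expected number. For Cish it lay 350 kb away in Dock3, a guanine nucleotide exchange factor gene, with 17 and 14 contacts, 4.15 times (interval 2.82 to 5.89). For Igfals it lay 150 kb away, in a bin with Rps2, Rpl3l, Tbl3, Ndufb10, Msrb1, Noxo1 and Rnf151, with 19 and 12 contacts, 4.20 times (2.85 to 5.96). Both were enriched in each library on its own by this expectation. With distance alone as the expectation the Cish bin stood at 2.55 times in vehicle and 1.45 in GW4064, and the Igfals bin at 2.46 and 1.05, so neither then passed 2 times in GW4064. Jak2 had its strongest partner 200 kb away in a bin with no protein-coding gene, with 35 and 60 contacts, 2.55 times (2.06 to 3.12). Among partner bins of the Stat5 locus with at least 20 contacts over both libraries, the highest value over both was 1.73, with the bin of Cavin1, a gene of caveolae, 100 kb away. Its bin with Acly and Ttc25, 250 kb away, held 16 and 22 contacts and passed 2 times in GW4064 alone, at 2.45. No partner bin of Socs3 reached 20 contacts over both libraries.

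In all, 10 of 667 partner bins of the 9 loci were enriched in vehicle (1.5%), 21 in GW4064 (3.15%) and 6 in both (0.90%). A partner was enriched with at least 10 contacts and 2 times the expected number. The same rule called 1.9%, 3.18% and 1.11% of the partner bins of all protein-coding loci, so the count is near the background. As a share of each list, the 6 bins found in both are 6 of 10 and 6 of 21. The totals of the libraries differ, and the part of depth in these counts was not tested.

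Single partner bins could seldom be compared between libraries. No share over all protein-coding loci was counted for comparison. Of 28 partner bins with at least 40 contacts, 2 had an interval below 0 and 1 above 0. The lowest was the Cavin1 bin of the Stat5 locus, with 65 and 42 contacts and a log2 ratio of -1.19 (interval -1.78 to -0.60). Next was the Rcl1 bin of Jak2, with 36 and 30, at -0.82 (-1.57 to -0.08), then the Atp6v0a1 bin of the Stat5 locus at -0.61 (-1.43 to 0.21). The highest was a Jak2 bin 100 kb away, with 14 and 34, at 0.72 (-0.21 to 1.74), followed by the Ghr bin at 350 kb and the Jak2 bin at 200 kb, at 0.23 (-0.40 to 0.87).

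Other genes of the growth hormone and IGF axis were read the same way, from a list of 60 genes that form 57 loci. Of these, 31 were lower, 0 higher and 26 neither, with a median log2 ratio of -0.34. For all protein-coding loci the median was -0.15 and 34.2% were lower. That median depends on gene density. It was -0.45 for protein-coding loci with 38 to 75 genes around them and 0.05 for those with 0 to 4.5. By role, 6 of 7 JAK and STAT loci, 8 of 12 loci of phosphatases and adapters and 2 of 3 other receptors were lower. The counts were 2 of 5 for other SOCS genes, 4 of 12 for IGF2, IGF and insulin receptors, binding proteins and their proteases, and 3 of 12 for sex-biased and metabolic liver genes. Differences between these families were not tested. Neither the list nor its families were set against loci of like gene density, so the part of gene density in these counts was not tested. Stat3 shares a bin with the Stat5 locus, so the lists are not independent.

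The lowest of these loci were Jak3, a kinase of lymphocytes, with 188 and 140 contacts and -0.92 (interval -1.25 to -0.60), Igfbp6, an IGF binding protein, at -0.89 (-1.20 to -0.58), and Ptpn6, a phosphatase of blood cells, at -0.83 (-1.16 to -0.51). Around them lay 41, 39 and 43 protein-coding genes. Among the highest were Socs4, a SOCS family gene, at 0.12 (-0.12 to 0.35) and Cyp2b13, a cytochrome P450 gene of female liver, at 0.04 (-0.20 to 0.27). Both intervals include 0.

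The 9 loci were seldom joined to each other. Over the 34 pairs on different chromosomes 1 contact was counted in each library, against 0.779 and 0.701 expected from their contacts with other chromosomes. Igf1 and Socs2, 7500 kb apart on chromosome 10, were joined by 0 contacts in vehicle and 4 in GW4064, with 0.885 expected in the latter (exact Poisson interval of the 4 contacts 1.09 to 10.2). The Stat5 locus and Socs3, 17200 kb apart on chromosome 11, were joined by 2 and 1. At this depth no difference between the libraries can be read from such counts.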

How the data were processed

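Foxa2 HiChIP contacts were measured in 1 vehicle and 1 GW4064 liver library. The submitters' processing notes name HiC-Pro, Bowtie2 2.2.9 and the mm10 build. The sources used here do not give the version of HiC-Pro, the filters on reads, the treatment of duplicates or any pooling. The matrices the authors deposited hold raw counts of contacts per pair of 50 kb bins, with no normalization. The deposited bin tables hold positions and a bin number, which is an identifier and not a measurement.

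Chromosomes 1 to 19 and X were used. Gene spans came from the RefSeq table of GRCm38.p6, the assembly that mm10 names. A contact between 2 bins of a locus was counted once. Before a ratio was taken, the libraries' totals of that contact class were set equal, with exact conditional binomial 95% intervals. Shares have exact Clopper-Pearson intervals. Protein-coding loci are the 17743 distinct sets of bins of 21627 genes, and those with at least 100 local contacts served for comparison. Expected contacts came from the genome-wide mean at each distance, and for enriched partners also from the local contacts of both bins. Partner distances run from the nearest bin of the locus. Partner bins that held 0 contacts with the locus were kept, and at the start of chromosome 15 only 4 bins before Ghr entered.

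The members and the lists were chosen with earlier results of these data known. The named partners are, per locus, up to 3 bins with the highest observed over expected value and at least 20 contacts over both libraries, and the 3 highest and 3 lowest ratios among those with at least 40. Of the other pathway genes, the 3 highest and 3 lowest loci with at least 200 contacts were named. Examples among these are printed, and some of the list's results are not reported here. The depth, 22686004 and 29003442 contacts, limits single bin pairs. Promoter sequences are those of RefSeq, GRCm38.p6. Computation used scipy 1.17.1, matplotlib 3.10.9, pandas 2.3.3 and numpy 2.4.6 under Python 3.11.15.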

Additional observations from a re-analysis of the deposited data

How the results depend on the processing

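Across the other settings tried, the median log2 ratio stayed below 0. It ran from -0.50 with the bin of each gene's midpoint to -0.12 with contacts within the same bin. The midpoint value is over the 10 genes, with Stat5a and Stat5b apart. The number of loci called lower, 6 as reported, ran from 2 to 7. It was 7 with a window of 1 Mb, which added Bcl6, and 5 with neighbour bins. With a window of 500 kb it was again 6, but Bcl6 was called and Socs2 was not, at -0.19 (interval -0.40 to 0.01). With the midpoint bin or each gene on its own, 7 of the 10 genes were lower. These genes are those of the 6 loci first reported, with Stat5a and Stat5b counted apart. No share of protein-coding loci was set beside these settings. The number was 4 with all contacts (34.9% of protein-coding loci), equal total contacts (19.7%) or the median locus (19.1%). It was 3 with contacts within the same bin (26.9% of protein-coding loci) and 2 with contacts to other chromosomes (20.4%). Against loci of like gene density, a setting chosen after seeing the data, it was 3, with no share of protein-coding loci counted. None was called higher under any of the settings for which that was counted. Igf1 turned to 0.21 with contacts to other chromosomes. The cause was not tested. The number of enriched partner bins in vehicle, in GW4064 and in both was 10, 21 and 6. With at least 1.5 times the expected number it was 32, 47 and 24, and with at least 20 contacts 4, 10 and 3. With distance alone as the expectation it was 31, 26 and 18, with more in vehicle than in GW4064. The shares over all protein-coding loci were not counted under these other rules, so the order of the libraries there has no background. The median share of contacts within 2 Mb was 33.5% and 32.0%, and as a share of contacts within the chromosome 48.5% and 49.1%, by construction of the smaller denominator. Of the other pathway loci, 20 rather than 31 were lower against the median protein-coding locus, where 19.1% of protein-coding loci were. Gene density was not taken into account in that count. No paired analysis was possible because each group held 1 library, and none could be left out. Between the loci, at 0 to 4 contacts a pair, depth permits no comparison.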

Other observations

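Each locus was given a compartment score, the first eigenvector of the 250 kb correlation map, oriented so that gene-rich regions are positive and given in standard deviations of the chromosome. The score was above 0 at 9 of 9 loci in vehicle and at 7 of 9 in GW4064, against 64.4% and 61.6% of protein-coding loci. Ghr had 0.15 and -0.10, and Jak2 had 0.01 and -0.19, so their changes of sign are between values near 0. Igfals had the highest score, 1.38 in vehicle and 1.29 in GW4064, followed by Socs2 with 1.14 and 1.18. Socs3, with the lowest contact ratio, had 0.73 and 0.49.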
